A study of Homo sapiens with 12 samples.

Results

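The Notch pathway genes described here were 10 of the 55765 gene symbols counted in 12 RNA libraries of SH-SY5Y cells. They were chosen by name and comprised the receptors NOTCH1, NOTCH2 and NOTCH3, the ligands DLL1, DLL3, JAG1 and JAG2, the non-canonical ligand DLK1, and the target transcription factors HES1 and HEY1. SH-SY5Y cells are a line of human neuroblastoma origin that adopts neuron-like features under all-trans retinoic acid (ATRA), and all 4 groups received ATRA for 7 days. In the co-treatment experiment, 3 libraries came from cells given hydrogen peroxide (H2O2) together with ATRA throughout and 3 control libraries from cells given ATRA alone. In the pre-treatment experiment, 3 libraries came from cells given H2O2 for 72 h before ATRA was added and 3 control libraries from cells without H2O2. The H2O2 dose is written as 10 mM in the deposited design and as 10 μM in the methods of the study. No label ties a library to a culture of its own, so the p-values measure the spread between these libraries, which may be technical. The samples are bulk RNA of 1 cell line, so a change in the share of cells that express a gene and a change in RNA per cell cannot be told apart.

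Notch receptors are membrane proteins that are cleaved after they bind a Delta or Jagged ligand on a neighbouring cell, and the released intracellular domain enters the nucleus and joins the DNA-binding protein RBPJ and a Mastermind coactivator. The best known direct targets are the HES and HEY basic helix-loop-helix repressors, which in neural progenitors hold down proneural factors and so delay neuronal differentiation. DLK1 resembles the Delta ligands but lacks the domain through which they bind the receptor, DLL3 is known for inhibiting Notch in the cell that makes it, and HES1 is known to bind and repress its own promoter.

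The promoter of HES1 is shown because it is a classical Notch-responsive promoter and because HES1 separated the groups of the co-treatment experiment. The sequence is from RefSeq on GRCh38.p14, chr3:194135898-194136147, plus strand, and covers the 250 bases before the transcription start. Capitals mark every match, on either strand, to TGGGAA, the core of the RBPJ motif, and to CACNAG, the N box bound by HES proteins.
HES1 promoter: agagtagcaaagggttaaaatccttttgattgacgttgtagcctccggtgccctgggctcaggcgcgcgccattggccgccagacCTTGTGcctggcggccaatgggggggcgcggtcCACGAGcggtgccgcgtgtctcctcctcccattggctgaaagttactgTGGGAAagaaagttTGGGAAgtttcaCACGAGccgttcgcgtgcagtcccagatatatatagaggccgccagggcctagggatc
The HES1 window held 2 copies of TGGGAA, which begin at positions -84 and -70 relative to the start, and 3 copies of CACNAG, at position -165 on the minus strand and at -132 and -58 on the plus strand. No match of one motif overlapped a match of the other. Of 35116 promoter windows of the same length, 20.8% held TGGGAA at least once and 2.9% held 2 or more copies, while 32% held CACNAG and 6.32% held 2 or more copies of it. RefSeq promoters were matched for 6 of the 10 genes. The NOTCH3 window held 1 copy of CACNAG at position -211 and no TGGGAA, and the windows of NOTCH1, NOTCH2, JAG1 and JAG2 held neither motif. A match describes the letters and does not show that a factor is bound.

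Between 27576276 and 98287391 reads were counted on genes per library. Pre-treatment control replicates 1 and 2 stood apart from the other 10 libraries, with 0.80 and 0.83 reads outside annotated genes per read on a gene against 0.20 to 0.462 elsewhere, and with 1.59% and 2.88% of gene reads on small structured RNA loci against 5.04% to 17.6%. Control replicate 3 of the same group had the lowest ratio (0.20) and the highest small RNA share (17.6%), and it differed from replicates 1 and 2 by a chi-square of 545 and 499 per degree of freedom, against 24.8 to 147 between all other replicates of a group. Because these 3 controls did not hold together, the pre-treatment results are given over all 6 libraries and again without control replicate 3. The latter keeps as controls only replicates 1 and 2, which stood apart from the other 10 libraries. Which controls reflect the condition was not settled. The part that these library properties play in the pre-treatment results was not tested. Levels are given in CPM (counts scaled to library size), with TMM factors over all 12 libraries. Each log2 fold change (log2FC) compares H2O2 with control and is given ± its standard error, with the FDR, the Benjamini-Hochberg adjusted p of edgeR's quasi-likelihood test over all genes tested. A call required an FDR below 0.05 and a log2FC beyond 0.6 in either direction for co-treatment, or beyond 1 for pre-treatment.

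All 10 genes passed the filter on low counts in every comparison. Per kilobase of exons, NOTCH2 had the highest mean level over the 12 libraries, at 24.9 CPM per kb (12.2 to 46.3). HES1 followed at 8.77 CPM per kb (4.34 to 13.9), and JAG1, NOTCH3, DLL3 and HEY1 lay close together with means of 4.44, 4.2, 3.59 and 3.46 CPM per kb. DLK1 had a mean of 1.94 CPM per kb but ranged from 0.0259 to 8.51. The mean levels of JAG2, DLL1 and NOTCH1 were 0.625, 0.136 and 0.0753 CPM per kb. The ranges of neighbours in this order overlapped except for those of JAG2 and DLL1. Within single libraries, NOTCH2 was above HES1, HES1 above JAG1 and JAG2 above DLL1 in 12 of 12, and HEY1 above DLK1 and DLL1 above NOTCH1 in 11 of 12. JAG1 was above NOTCH3 in 9, DLL3 above HEY1 in 7, DLK1 above JAG2 in 7 and NOTCH3 above DLL3 in 3 of the 12 libraries, so these neighbours had no fixed order. NOTCH2 was the receptor with the highest level per kb over the 12 libraries, NOTCH3 came next, and NOTCH1 was a trace transcript with 14 to 115 reads per library. The other mammalian receptor gene, NOTCH4, had 2 reads in pre-treatment control replicate 3 and 0 reads in the other 11 libraries.

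**Figure D1:**
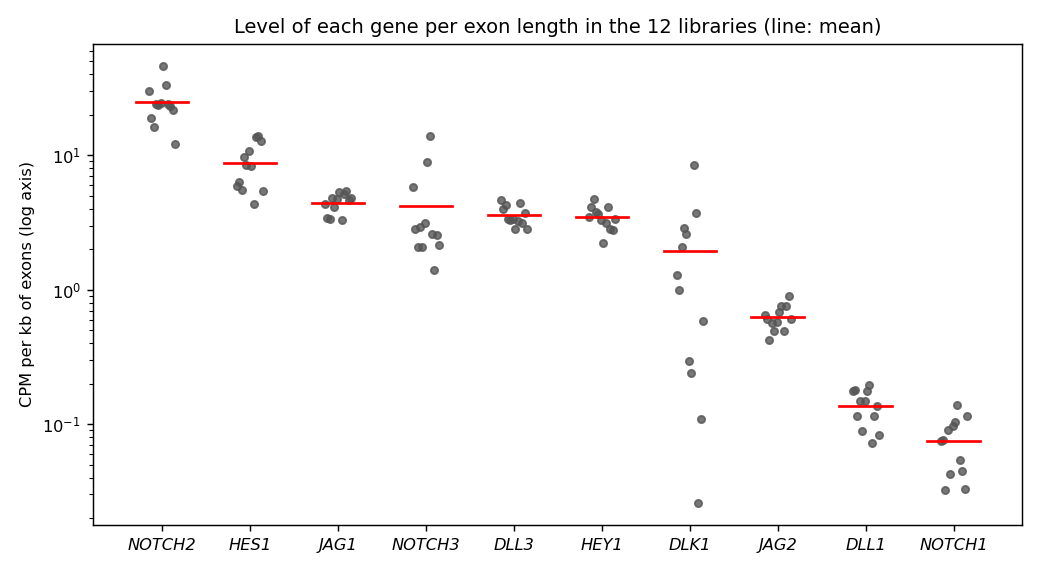
Level of each gene in CPM per kb of exons (log axis), with 1 point for each of the 12 libraries and a red line at the mean. NOTCH2 lies highest (mean 24.9), NOTCH1 lowest (mean 0.0753), and DLK1 spreads over the widest range (0.0259 to 8.51).

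The genes also differed in how far they varied between libraries, without regard to group. The standard deviation of log2CPM over the 12 libraries was 2.32 for DLK1 and 0.96 for NOTCH3, which exceeded that of 98.6% of the 13780 genes with an average log2CPM above 1. It was 0.68 for NOTCH1 (above 95.5% of those genes), 0.57 for HES1 (above 92.3%), 0.49 for NOTCH2 (above 87.9%) and 0.45 for DLL1 (above 84.6%), where NOTCH1 and DLL1, with 14 to 115 and 15 to 42 reads per library, lay below that level themselves. JAG1 and DLL3 were among the steadier genes, with standard deviations of 0.25 and 0.24 that exceeded 43.3% and 39.6% of those genes.

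**Figure D2:**
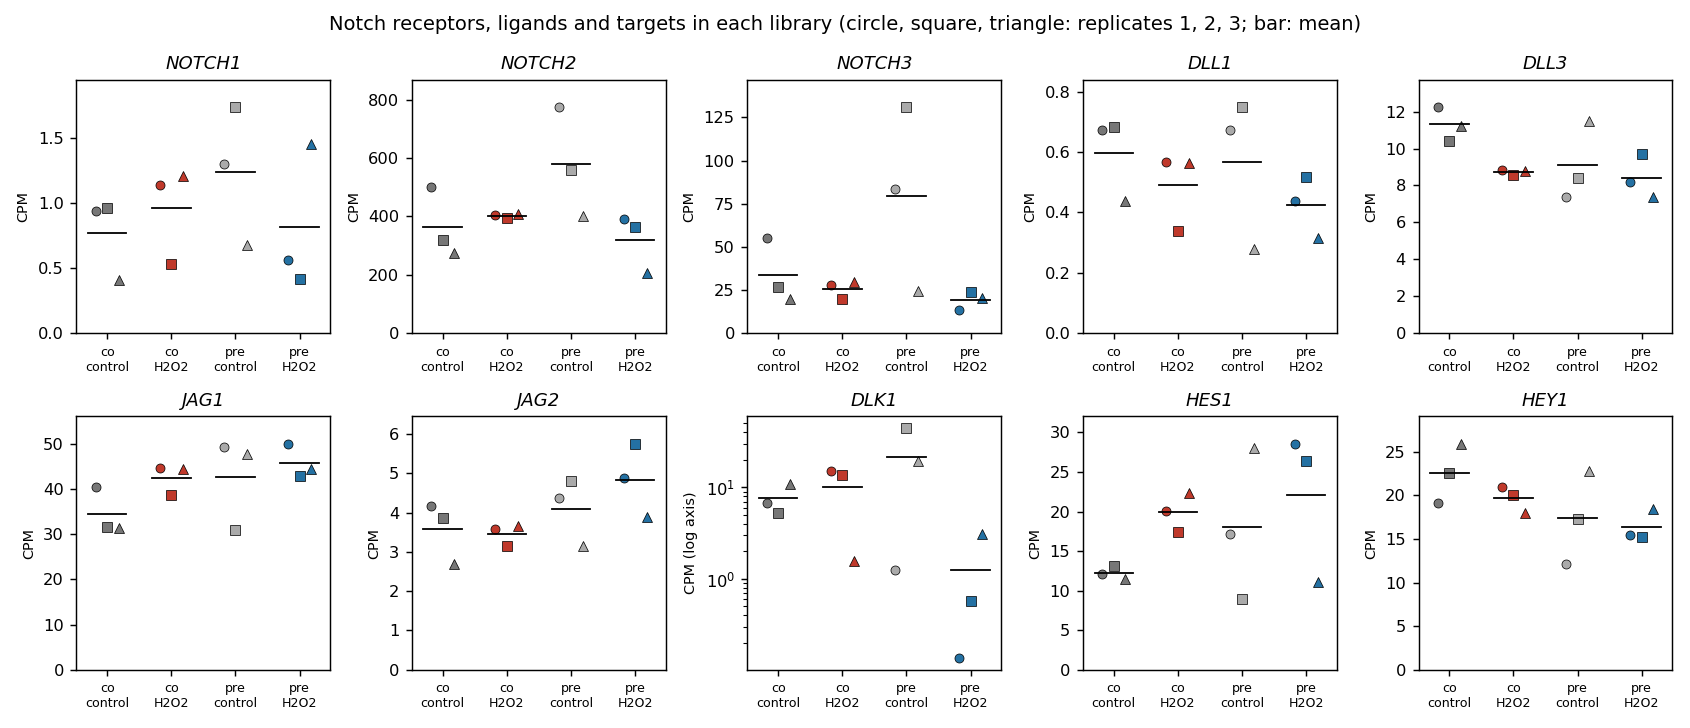
CPM of each gene in the 12 libraries (DLK1 on a log axis), with circles, squares and triangles for replicates 1, 2 and 3 and a bar at the group mean. The 3 HES1 values with H2O2 co-treatment (17.4 to 22.3) lie above the 3 controls (11.5 to 13.1), and NOTCH3 is high in pre-treatment control replicates 1 and 2 (83.2 and 131.1).

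In the co-treatment experiment, which asks what H2O2 changes while the cells differentiate, HES1 was the gene of the 10 with the smallest p, and DLL3 and JAG1 were the others with an unadjusted p below 0.05. None of the 10 was called by edgeR's quasi-likelihood test, against a background of 132 of 22089 genes called (0.598%). HES1 was higher and DLL3 lower in every treated library than in any control, while 14% of all genes tested had groups that did not overlap. The median log2FC of the 10 genes was 0.05, against -0.001 over all genes tested.

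HES1 (chr3:193853937-193856521, plus strand, hg19), a repressor and a target of Notch, was at 12.2, 13.1 and 11.5 CPM in control replicates 1 to 3 and at 20.1, 17.4 and 22.3 CPM in treated replicates 1 to 3. Each treated library was above each control, with group means of 12.25 ± 0.844 and 19.9 ± 2.48 CPM (SD, n = 3 each). The log2FC of HES1 was 0.70 ± 0.15 and missed the threshold at an FDR of 0.0651. On the same counts, edgeR's exact test gave HES1 an FDR of 0.00635 and DESeq2 gave 0.00266, whereas limma-voom gave 0.076. The log2FC of HES1 was between 0.61 and 0.79 with each library left out in turn, with an FDR of 0.0591 to 0.495 and no call. In 1 fit over all libraries its FDR was 0.989. The size thus held, while the call depended on the test and on the libraries in the fit. HEY1 (chr8:80674606-80680092, minus strand), the other target, was at 19.1, 22.6 and 25.9 CPM in the controls and at 20.9, 20.1 and 18 CPM with H2O2. The HEY1 values overlapped between the groups, with a log2FC of -0.20 ± 0.15 (FDR = 0.83).

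TLE1, a Groucho-type corepressor that HES proteins recruit, differed in the opposite direction to HES1 in the same libraries. A relation between TLE1 and HES1 was not tested. It was at 66.0, 60.3 and 52.5 CPM in the co-treatment controls and at 37.6, 30.7 and 32.0 CPM with H2O2. TLE1 fell, with a log2FC of -0.84 ± 0.13 (FDR = 0.0145). Leaving out 1 library gave TLE1 a log2FC of -0.93 to -0.76 and an FDR of 0.00882 to 0.179, and it was not called without control replicate 2, treated replicate 2 or treated replicate 3.

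**Figure D3:**
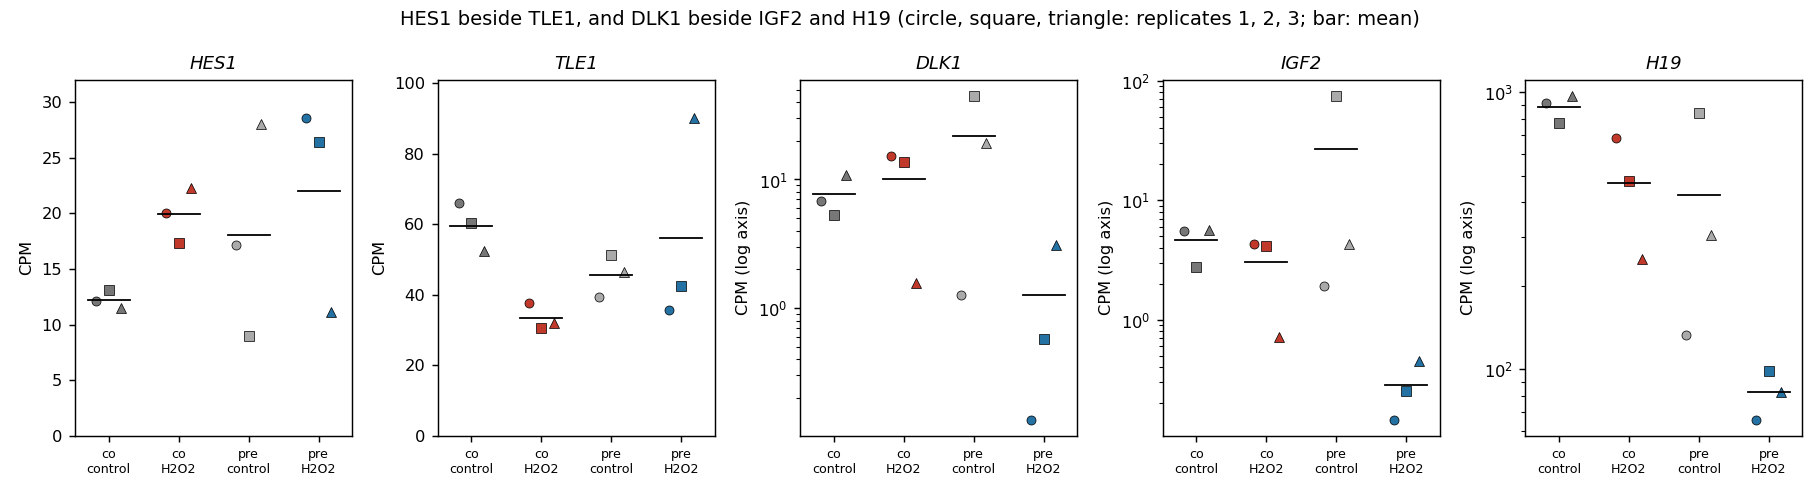
CPM of HES1 and TLE1, and of DLK1, IGF2 and H19 on log axes, in the 4 groups, with circles, squares and triangles for replicates 1, 2 and 3 and a bar at the group mean. HES1 is higher and TLE1 lower in all 3 co-treated libraries than in their controls, pre-treated replicate 3 has low HES1 (11.1) and high TLE1 (90.2), and DLK1 and IGF2 are both high in pre-treatment control replicate 2 (44.7 and 74.8).

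Among the ligands of the co-treatment experiment, DLL3 (chr19:39989535-39999121, plus strand) was at 12.3, 10.4 and 11.3 CPM in the controls and at 8.85, 8.57 and 8.80 CPM with H2O2. The treated values were close together and all lower, with a log2FC of -0.37 ± 0.15 that was not called (FDR = 0.521). JAG1 (chr20:10618332-10654647, minus strand), the Jagged ligand with the highest level, was at 40.4, 31.5 and 31.4 CPM in the controls and at 44.6, 38.5 and 44.3 CPM with H2O2 (log2FC 0.30 ± 0.14, FDR = 0.61). Its values overlapped through treated replicate 2. JAG2 (chr14:105607319-105635161, minus strand) ranged from 2.68 to 4.18 CPM in the controls and from 3.15 to 3.66 CPM with H2O2 (log2FC -0.05, FDR = 0.982), and DLL1 (chr6:170591294-170615653, minus strand) from 0.437 to 0.685 and from 0.339 to 0.568 CPM (log2FC -0.31, FDR = 0.929). DLL1 overlaps FAM120B on the opposite strand, and NOTCH1 contains the microRNA gene MIR4673 on its own strand. The strand setting of the counting is not given in the sources used here.

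The receptors did not separate the groups of the co-treatment experiment. NOTCH2 (chr1:120454176-120643366, minus strand) was at 499.9, 318.4 and 273.5 CPM in the controls and at 403.5, 393.9 and 408.7 CPM with H2O2 (log2FC 0.14 ± 0.19, FDR = 0.921). NOTCH3 (chr19:15269849-15311806, minus strand) was at 55.0, 26.5 and 19.6 CPM in the controls and at 27.7, 19.5 and 29.7 CPM with H2O2 (log2FC -0.40 ± 0.31, FDR = 0.835). Control replicate 1 had the highest value of both receptors, and without it the log2FC of NOTCH3 was 0.15 and that of NOTCH2 0.44. NOTCH1 (chr9:139388885-139440500, minus strand) was between 0.408 and 0.963 CPM in the controls and between 0.533 and 1.21 CPM with H2O2 (log2FC 0.29 ± 0.44, FDR = 0.934). DLK1 (chr14:101192042-101204561, plus strand) was at 6.75, 5.26 and 10.9 CPM in the controls and at 15.2, 13.6 and 1.56 CPM with H2O2 (log2FC 0.40 ± 0.56, FDR = 0.929), so that treated replicate 3 lay below all controls and the other two above them.

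In the pre-treatment experiment, which asks what remains of an earlier H2O2 exposure after differentiation, NOTCH2 and NOTCH3 were lower in every treated library than in any control. Over all 6 libraries none of the 10 genes was called, against a background of 6 of 24743 genes called (0.0242%), and NOTCH2, NOTCH3 and DLK1 had an unadjusted p below 0.05. Groups that did not overlap made up 16.4% of all genes tested. Without control replicate 3, NOTCH2 and NOTCH3 were called, both as lower, against a background of 2952 of 26350 genes called (11.2%). NOTCH2, NOTCH3 and DLL1 then had groups that did not overlap, against 57.7% of all genes tested, so 3 of 10 was below that background. The median log2FC of the 10 genes was -0.26 over 6 libraries and -0.31 without control replicate 3, against -0.007 and 0.01 over all genes tested.

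NOTCH3 was at 83.2, 131.1 and 24.4 CPM in control replicates 1 to 3 and at 13.3, 23.8 and 20.3 CPM in treated replicates 1 to 3. Control replicates 1 and 2 were high, and control replicate 3 lay just above the highest treated library. The log2FC of NOTCH3 was -2.05 ± 0.53 (FDR = 0.32) over 6 libraries and -2.46 ± 0.26 (FDR = 0.00107) without control replicate 3. Over the 6 libraries the FDR of NOTCH3 was 0.0224 with edgeR's exact test, 0.00446 with DESeq2 and 0.413 with limma-voom. With no filter on low counts it was 0.0175. Without control replicate 3 that setting gave NOTCH3 an FDR of 2.51e-57, so its values are not read as stronger evidence. Without control replicate 3, the log2FC of NOTCH3 was -2.73 to -2.09 with each further library left out. The call held with each treated library left out. All these fits keep control replicate 1 or 2, the high ones, so they do not test how far NOTCH3 depends on those controls. The fits that drop either of these controls hold 1 control library. NOTCH2 was at 775.0, 559.3 and 402.5 CPM in the controls and at 390.3, 364.7 and 204.3 CPM with H2O2, where the lowest control and the highest treated library were close. Its log2FC was -0.85 ± 0.32 (FDR = 0.377) over 6 libraries and -1.03 ± 0.26 (FDR = 0.0231) without control replicate 3. The NOTCH2 call was lost without control replicate 1 (log2FC -0.76, FDR = 0.143), without control replicate 2 (FDR = 0.0561) and, by size, without treated replicate 3 (log2FC -0.83). NOTCH2 has near-identical copies, and the counts of NOTCH2NL and NOTCH2P1 were 0.168% to 0.556% and 0.0843% to 0.414% of those of NOTCH2. How reads were shared between the copies was not tested.

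The high control values of NOTCH2 and NOTCH3 came from the libraries with the most reads outside genes. The co-treatment and pre-treatment controls both had ATRA alone, and none of the 10 genes was called between them over 6 libraries. In that fit 0 of 23739 genes were called (0%) by edgeR's quasi-likelihood test, with 1551 at an unadjusted p below 0.05, while edgeR's exact test called 13. Of the 10 genes 7 were higher and 3 lower in the pre-treatment controls. The log2FC against the co-treatment controls was 1.275 ± 0.593 for NOTCH3 and 0.698 ± 0.317 for NOTCH2 (FDR = 0.692 for each). Without pre-treatment control replicate 3, NOTCH3 was higher in the pre-treatment than in the co-treatment controls (log2FC 1.68, FDR = 0.0179), and so was NOTCH2 (log2FC 0.89, FDR = 0.0391), against a background of 5055 of 25545 genes called (19.8%), so 2 of 10 was near that share. The pre-treated libraries, in turn, overlapped the co-treatment controls, with NOTCH3 at 13.3 to 23.8 against 19.6 to 55.0 CPM and NOTCH2 at 204.3 to 390.3 against 273.5 to 499.9 CPM. CMIP, the gene whose pattern over the 12 libraries was most like that of NOTCH3 (root mean square difference of the centred log2CPM 0.16), was at 78.0 and 134.3 CPM in pre-treatment control replicates 1 and 2 and at 12.1 to 55.9 CPM in the other 10 libraries. Where the experiments differed in handling, that cannot be told apart from the experiment.

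**Figure D4:**
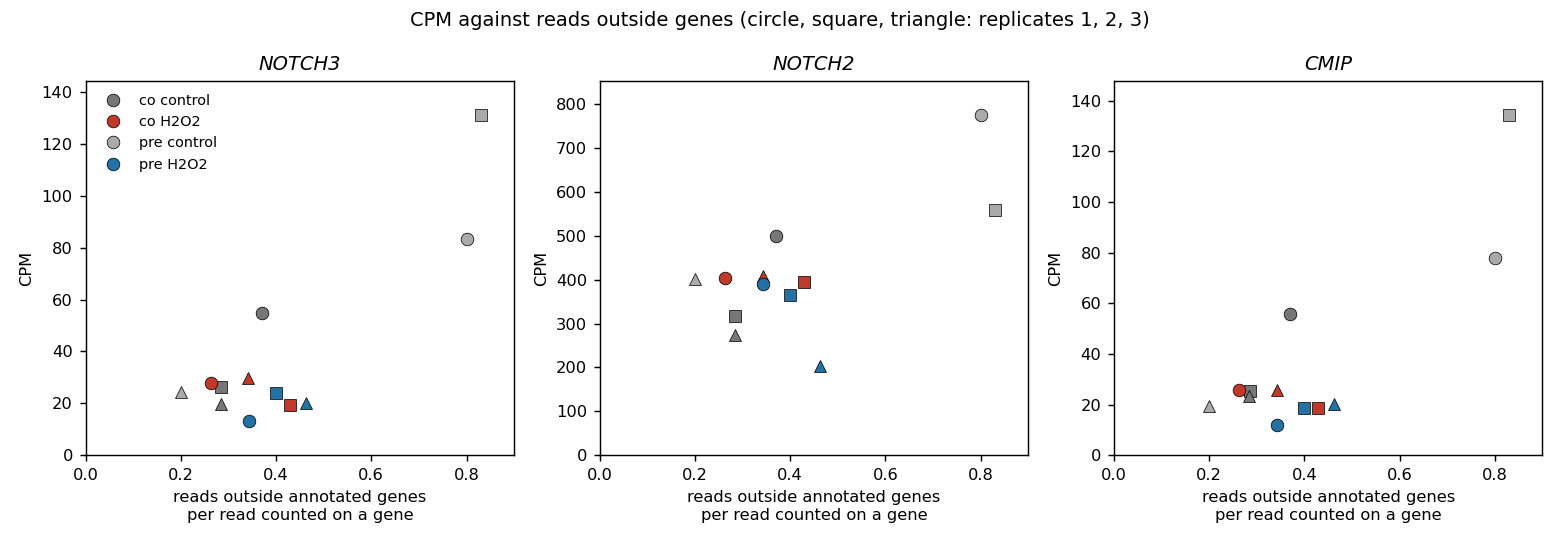
CPM of NOTCH3, NOTCH2 and CMIP against the number of reads outside annotated genes per read on a gene, with 1 point for each of the 12 libraries, coloured by group and shaped by replicate. Pre-treatment control replicates 1 and 2 lie far to the right (0.80 and 0.83) and have the highest values of NOTCH3 (83.2 and 131.1) and CMIP (78.0 and 134.3), while the other 10 libraries lie between 0.20 and 0.462.

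DLK1, an imprinted gene of chromosome 14, was the most variable of the 10 genes. It was at 1.26, 44.7 and 19.4 CPM in the pre-treatment controls and at 0.136, 0.577 and 3.08 CPM with H2O2, the lowest of which rests on 13 reads. The groups overlapped because control replicate 1 was below treated replicate 3. The log2FC was -4.11 ± 1.33 (FDR = 0.328) over 6 libraries and -4.16 ± 1.33 (FDR = 0.0506) without control replicate 3. In the latter fit the FDR of DLK1 was 0.0487 with library size alone, 0.0481 with small structured RNA loci removed, 0.0202 with 1 fit over all libraries and 0.011 with edgeR's exact test, while DESeq2 gave 0.0764 and limma-voom 0.168. With no filter on low counts the FDR was 2e-61. That value cannot reflect the spread of the 2 controls, at 1.26 and 44.7 CPM, and is not read as stronger evidence. Without control replicate 2 alone the log2FC was -3.03 (FDR = 0.915), and without control replicates 2 and 3 it was 0.03. The genes most like DLK1 over the 12 libraries were IGF2 and H19, which are imprinted genes of chromosome 11, although with root mean square differences of 1.02 and 1.38 neither was close. IGF2, a growth factor, was at 1.92, 74.8 and 4.35 CPM in the pre-treatment controls and at 0.146, 0.252 and 0.455 CPM with H2O2. The values of H19, a noncoding RNA, were 133.2, 842.3 and 305.1 CPM in the controls and 65.9, 98.8 and 83.2 CPM with H2O2. In all 3 genes control replicate 2 was the highest and control replicate 1 the lowest of the controls, and in the co-treated libraries replicate 3 was the lowest of its group (1.56 CPM of DLK1, 0.72 of IGF2 and 250.8 of H19). RTL1, which lies near DLK1 on chromosome 14, shared this order in part. It was at 4.01, 77.5 and 1.19 CPM in the pre-treatment controls, so its lowest control was replicate 3. Its lowest co-treated library was also replicate 3 (0.817 CPM).

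HES1 did not separate the pre-treatment groups, with 17.1, 8.94 and 28.1 CPM in the controls and 28.6, 26.4 and 11.1 CPM with H2O2. Its log2FC was 0.29 ± 0.46 (FDR = 0.825) over 6 libraries and 0.78 ± 0.41 (FDR = 0.189) without control replicate 3. With treated replicate 3 left out as well, the log2FC was 1.07 (FDR = 0.0226), in a fit that called 3540 of 25881 genes (13.7%). That fit drops the treated library with the value most against the difference, so it does not test HES1. Treated replicate 3, with the lowest HES1 of its group, had the highest TLE1 of all 12 libraries (90.2 CPM, against 35.7 and 42.6 in treated replicates 1 and 2). This describes 1 library, and whether the 2 genes vary together was not tested. HEY1 was at 12.1, 17.3 and 22.7 CPM in the controls and at 15.5, 15.3 and 18.4 CPM with H2O2 (log2FC -0.09, FDR = 0.904, and 0.18, FDR = 0.509, without control replicate 3).

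None of the canonical ligands was called in the pre-treatment experiment. JAG1 was at 49.3, 30.9 and 47.6 CPM in the controls and at 50.01, 42.9 and 44.5 CPM with H2O2 (log2FC 0.11 ± 0.21 over 6 libraries). The ranges were 3.15 to 4.80 and 3.89 to 5.76 CPM for JAG2 (log2FC 0.24 ± 0.27) and 7.40 to 11.5 and 7.39 to 9.68 CPM for DLL3 (log2FC -0.12 ± 0.24). The log2FC of DLL1 was -0.41 ± 0.50 over 6 libraries and -0.72 ± 0.39 (FDR = 0.198) without control replicate 3, where its treated values of 0.316 to 0.518 CPM lay below the controls of 0.674 and 0.750 CPM. These DLL1 values rest on few reads (15 to 42 per library over the 12 libraries). NOTCH1, with 0.679 to 1.74 CPM in the controls and 0.414 to 1.45 CPM with H2O2, had a log2FC of -0.60 ± 0.56 over 6 libraries and -0.87 ± 0.51 (FDR = 0.232) without control replicate 3. Its highest treated value was that of replicate 3. Without that library the log2FC was -1.33 (FDR = 0.605), and with control replicate 3 left out as well it was -1.62 (FDR = 0.0137). The latter fit called 3540 of 25881 genes (13.7%). Both fits drop the treated library with the value most against the difference, so they do not test NOTCH1.

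**Figure D5:**
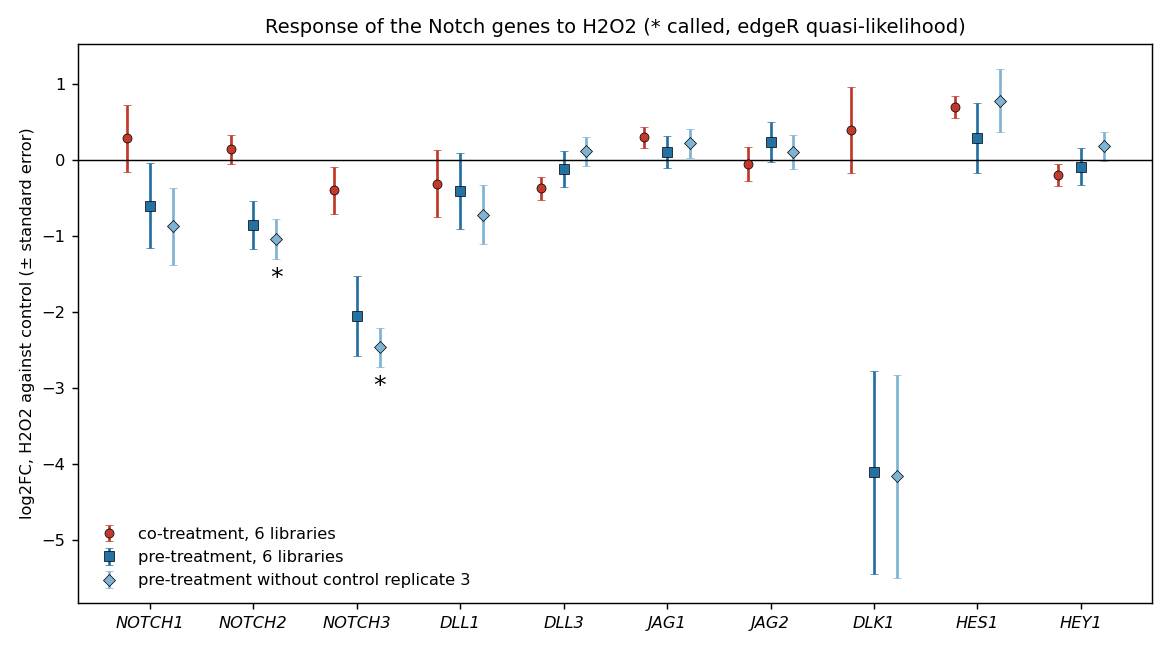
log2FC of each gene, H2O2 against control, with bars of 1 standard error, for co-treatment (6 libraries), pre-treatment (6 libraries) and pre-treatment without control replicate 3. Stars mark the calls of edgeR's quasi-likelihood test, which are NOTCH2 (-1.03) and NOTCH3 (-2.46) without control replicate 3.

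Whether the 2 experiments differed in their response was tested as the difference between their log2FC (pre-treatment minus co-treatment), with calls at an FDR below 0.05. Over 12 libraries none of the 10 genes was called, against 7 of 24407 genes (0.0287%), and NOTCH2, NOTCH3 and DLK1 had an unadjusted p below 0.05. Over the 11 libraries without pre-treatment control replicate 3, NOTCH3 (difference -2.12 ± 0.48, FDR = 0.0201) and NOTCH2 (difference -1.23 ± 0.36, FDR = 0.0488) were called, against 2058 of 25668 genes (8.02%). The NOTCH2 difference was called only without co-treatment control replicate 1 when 1 further library was left out, and the NOTCH3 difference was not called without co-treatment control replicate 2 (FDR = 0.0644), co-treated replicate 3 (0.0552), pre-treatment control replicate 2 (0.107) or pre-treated replicate 1 (0.0502). The response of HES1 did not pass this test, with differences of -0.43 ± 0.51 over 12 libraries and 0.03 ± 0.44 over 11 libraries. DLK1 had a difference of -4.53 ± 1.57 (FDR = 0.511) over 12 and -4.61 ± 1.54 (FDR = 0.075) over 11 libraries.

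The other genes of the pathway were taken from a list, of which 60 symbols were found in the files and are reported. In the co-treatment experiment 48 of them were tested, and TLE1, which was lower, was the gene called. In the pre-treatment experiment 51 were tested, of which none was called over 6 libraries (15 had an unadjusted p below 0.05), and 1 rose and 7 fell without control replicate 3. These 8 were 15.7% of the genes tested and the 7 that fell 13.7%, against 11.2% of all genes called and 8.23% called as lower in the same fit. The nuclear complex held 3 of the 7 that fell, out of 9 tested. These were the histone acetyltransferase EP300 (log2FC -2.12 ± 0.17), the corepressor SPEN (-2.10 ± 0.24) and the Mastermind coactivator MAML1 (-1.16 ± 0.14), while RBPJ itself, with 66.6 to 84.1 CPM over all 12 libraries, was not called (log2FC -0.24 ± 0.10, FDR = 0.115). Both coactivators and corepressors are thus among the genes that fell. The others that fell were the corepressor TLE3 (-1.40 ± 0.15), 1 of 4 HES corepressors tested, the ubiquitin ligase NEURL (-1.13 ± 0.20), 1 of 4 genes of ligand endocytosis, DTX2 (-1.17 ± 0.19), 1 of 9 intracellular regulators, and DNER (-1.09 ± 0.30). CNTN6, a contactin that has been described as a Notch ligand, rose (1.83 ± 0.35) from 0.343 and 0.585 CPM in the 2 controls to 1.44 to 1.77 CPM. None of the 9 receptor cleavage genes, the 5 glycosylation genes tested or the other HES and HEY factors tested (3 with co-treatment and 4 with pre-treatment) was called in either experiment, and NEUROG1 had 0 reads in every library. EP300, like NOTCH3, was high in pre-treatment control replicates 1 and 2 (111.1 and 135.7 CPM) and between 22.5 and 50.1 CPM in the other 10 libraries. EP300, SPEN and TLE3 were called with each further library left out, whereas MAML1, DTX2, NEURL, DNER and CNTN6 were not called without control replicate 2. The fits without control replicate 1 or 2 hold 1 control library, and every fit keeps a control with high EP300.

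Lists of cell state markers were read beside these results. The 5 neuronal markers summed to 1542 to 1569 CPM in the co-treatment controls, 1170 to 1507 with co-treatment, 1273 to 1601 in the pre-treatment controls and 1100 to 1297 with pre-treatment. All 5 had a negative log2FC in both experiments, and none was called. Without control replicate 3, MAPT had a log2FC of -0.94 ± 0.21 (FDR = 0.0142), short of the size threshold. The 8 noradrenergic neuroblastoma markers summed to 2152 to 3088 CPM in the co-treatment controls, 1641 to 2246 with co-treatment, 2135 to 3179 in the pre-treatment controls and 1404 to 1821 with pre-treatment. The 10 mesenchymal neuroblastoma markers, a state in which Notch receptors are known to be high, summed to 94.6 to 206.5 and 194.8 to 211.1 CPM in the co-treatment controls and treated libraries and to 139.2 to 262.9 and 140.6 to 201.1 CPM in those of the pre-treatment experiment. Of this list, VIM rose in both experiments (log2FC 1.16 ± 0.21, FDR = 0.0272, and 2.42 ± 0.24, FDR = 0.0442, over 6 libraries each), although with 1 library left out the co-treatment call held only without control replicate 1 and the pre-treatment call only without control replicate 3. Of the mesenchymal markers tested, VIM was the 1 of 8 called with co-treatment and the 1 of 8 called over 6 pre-treatment libraries. Of all genes tested, 0.598% and 0.0242% were called in these fits. Without control replicate 3, 4 of 9 were called as higher, namely VIM, YAP1 (log2FC 3.11 ± 0.81), GJA1 (2.53 ± 0.30) and CD44 (1.11 ± 0.31), whereas the collagen gene COL1A1 (-1.06 ± 0.35) and the fibronectin gene FN1 (-0.53 ± 0.27) were not called. YAP1, GJA1 and CD44 had low counts, with 3 to 93, 12 to 330 and 20 to 287 reads per library over the 12 libraries. Of all genes tested without control replicate 3, 11.2% were called, with 784 of 26350 called as higher and 2168 as lower. In that fit 2 of 7 noradrenergic markers were called, both as lower, and these were the transcription factor GATA3 (-1.44 ± 0.31) and the noradrenaline enzyme DBH (-1.72 ± 0.45). The defining marker PRRX1 was at or near 0 in every library (at most 0.0758 CPM), as was COL1A2 (at most 0.253 CPM), and the Schwann cell marker CDH19 was at most 0.0161 CPM, with the 5 Schwann cell markers summing to 4.55 to 7.40 CPM. The part of cell state in the Notch results was not tested.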

How the data were processed

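RNA of SH-SY5Y cells was sequenced in 12 libraries of 4 groups, 3 in each. According to the methods of the study, total RNA was depleted of ribosomal RNA, and paired reads went through FastQC 0.11.8 and Cutadapt 2.10 before alignment to hg19 by HISAT2 2.1.0 and counting with htseq-count (HTSeq 0.7.2). The authors deposited these counts per gene symbol without normalization, with 5 closing entries for reads not counted on a gene, which stayed out of library sizes and tests. The annotation version and the strand setting are not given in the sources used here. The deposited tables of the authors' comparisons (log2FC, average log2 CPM, p and FDR) were not used.

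The analysis used edgeR 4.0.16 in R 4.3.3 (quasi-likelihood test, TMM factors, Benjamini-Hochberg adjustment). A gene was tested if its CPM, in a number of libraries no lower than the size of the smaller group, was at or above the CPM that 5 counts have in the least deep library of that comparison. The difference between experiments was an interaction contrast with 1 spread for all groups, and the controls were compared at an FDR below 0.05. Alternatives were edgeR's exact test, DESeq2 1.42.0, limma-voom (limma 3.58.1), other scalings and filters, 1 fit over all libraries, a replicate block and each library left out. The scripts were tested on simulated data. Libraries held 27576276 to 98287391 reads on genes. Counting error is largest for DLL1 (15 to 42 reads per library), NOTCH1 (14 to 115 reads per library) and DLK1 where it is low (13 reads).

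All 10 genes were named, with the genes of a wider pathway list that were called in any comparison, and the 2 genes whose mean-centred log2CPM differed least from each gene over 12 libraries (average log2CPM above 1). The members and lists were chosen with earlier results of these data known. Some genes of these lists are not reported here. Same-numbered libraries were not paired by any label, and their residuals correlated by 0.134, 0.0213 and -0.185 in the co-treatment and by -0.184, 0.0878 and -0.234 in the pre-treatment experiment. Exon lengths and hg19 positions come from GENCODE v44 lifted to GRCh37, and promoters from RefSeq on GRCh38.p14.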

Additional observations from a re-analysis of the deposited data

Results flagged for a closer look

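Responses that differed between the 2 experiments by the interaction test over the 11 libraries without pre-treatment control replicate 3 (edgeR's quasi-likelihood test, FDR below 0.05) were found for 2 of the 10 genes and for 5 of 52 other pathway genes tested, together 11.3%, against 8.02% of all genes tested. The difference in log2FC, pre-treatment minus co-treatment, was -1.23 for NOTCH2 and -2.12 for NOTCH3. Among the other genes of the pathway it was -1.09 for MAML1 (FDR = 0.0345), -2.19 for SPEN (FDR = 0.00818), -2.18 for EP300 (FDR = 0.00743) and -1.86 for TLE3 (FDR = 0.0123), and 0.68 for CIR1 (FDR = 0.0324), a corepressor that binds RBPJ. None of the 7 was called over all 12 libraries. With 1 further library left out, EP300 and SPEN were called in each fit, while TLE3 was not called without pre-treatment control replicate 2, and MAML1 and CIR1 were lost in several fits. NOTCH2, NOTCH3, MAML1, SPEN, EP300 and TLE3 had their highest mean in pre-treatment control replicates 1 and 2, the libraries with the most reads outside annotated genes. The part of that property in these differences was not tested.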

How the results depend on the processing

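With 3 libraries a group and a control group that does not hold together, the calls depend on the test and on single libraries. Low depth limits NOTCH1 and DLL1, and DLK1 in pre-treated replicates 1 and 2 (13 and 39 reads). In the co-treatment experiment the count of the 10 genes called went from 0 to 1 with edgeR's exact test, DESeq2, small structured RNA loci removed or no filter, and the gene was HES1 each time. Calls that came with no filter, here and below, are not read as stronger evidence. Over 6 pre-treatment libraries it went from 0 to 1 (NOTCH3) with the exact test and DESeq2, to 2 (NOTCH3 and DLK1) with no filter, and was 0 to 2 with each library left out (2 without control replicate 3). Without control replicate 3 it went from 2 to 3, by DLK1, with the exact test, library size alone, small structured RNA loci removed, no filter or 1 fit over all libraries, and to 4 with a replicate block (3767 of 26350 genes called), which uses only the 2 complete pairs, and was 1 to 4 with a further library left out. In that replicate block NOTCH3, DLK1 (-5.48), NOTCH1 (-1.58) and HES1 (1.17) were called and NOTCH2 (-0.78) was not, and no call on the 10 genes changed under the block in the co-treatment or 6-library fits, where 180 and 0 genes of all tested were called. Of 6 libraries per experiment, 2 (co-treatment) and 1 (pre-treatment) correlated best with a library of their own number. The difference between experiments gave 2 calls in place of 0 with no filter over 12 libraries and 0 to 2 with a library left out, over 12 and over 11 libraries alike, and with the block DLK1 was added over 11 libraries. The controls gave 0 to 2 calls with a library left out.

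Genes called over all tested numbered 132 in the co-treatment experiment and 307 with the exact test, 443 with no filter, against 6, 231 and 300 over 6 pre-treatment libraries. The sign turned for some log2FC that were not called with all libraries of their comparison. In the co-treatment experiment it turned for DLK1 with limma-voom (-0.14) and, with 1 library left out, for NOTCH1 (-0.004 to 0.59), NOTCH2 (-0.025 to 0.44), NOTCH3 (-0.67 to 0.15), JAG2 (-0.22 to 0.075) and DLK1 (-0.008 to 0.91). Over 6 pre-treatment libraries it turned for DLL3 (-0.25 to 0.12), JAG1 (-0.09 to 0.22), HES1 (-0.042 to 0.78) and HEY1 (-0.29 to 0.18). Without control replicate 3 it turned for JAG1 (-0.075 to 0.61), JAG2 (-0.031 to 0.21), HEY1 (-0.035 to 0.46) and DLK1 (-6.10 to 0.03), and with library size alone for DLL3 (-0.10), JAG1 (-0.005), JAG2 (-0.11) and HEY1 (-0.032). DLK1 was called in the fit that gave -6.10, which also left out treated replicate 3 (FDR = 0.0215). The difference between experiments over 12 libraries turned for DLL1 (-0.46 to 0.15, and 0.10 with limma-voom), HES1 (-0.73 to 0.026) and HEY1 (-0.086 to 0.32), and over 11 libraries for JAG1 (-0.37 to 0.31), JAG2 (-0.038 to 0.27, and -0.10 with library size alone) and HES1 (-0.30 to 0.64, -0.016 with limma-voom and -0.20 with library size alone). Between the controls it turned for DLL1 (-0.32 to 0.25, and 0.052 with library size alone). The cause of these turns was not tested. Group mean levels moved by less than 1 standard deviation in 111 of 120 recomputations with other scalings.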
